A study of Homo sapiens with 6 samples.

Results

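The integrin and laminin chains of the MDA-MB-231 line, derived from a triple-negative carcinoma of the human breast, were followed after treatment with Azeliragon, an oral small molecule that blocks RAGE, a cell surface receptor of glycated and inflammatory proteins. The set holds 35 genes, 25 integrin chains and 10 laminin chains, chosen by gene name from a table of 58733 named entries. Cells received 2 µM Azeliragon or the vehicle DMSO for 72 h, and polyadenylated RNA was sequenced from 3 libraries of each condition, lettered a, b and c. All 6 came from the same line and the same serum-containing medium. Whether each library came from its own culture is not stated in the labels. The p-values below reflect library-to-library spread alone, and this may be technical.

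Integrins are receptors made of an alpha and a beta chain that bind matrix outside the cell and couple, through talin and kindlin, to actin within it. Laminins are trimers of an alpha, a beta and a gamma chain that build the basement membrane and are bound by integrins of the alpha3, alpha6 and alpha7 chains. The alpha6-beta4 integrin anchors epithelial cells to laminin in hemidesmosomes through plectin. In breast carcinoma these receptors have been studied for their part in adhesion, migration and spread.

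Libraries held 41455979 to 44313584 counts, so 3 reads corresponded to 0.0677 to 0.0724 CPM, the count scaled to library size. On the first principal component, which carried 37.6% of the variance, the Azeliragon libraries scored -23.0 to -19.0, while DMSO a scored -0.23, well short of DMSO b (30.1) and DMSO c (33.7). DMSO a was the highest DMSO library for 16 of the 24 chains tested (66.7%), against 40.3% of all genes tested, and calls are therefore given with and without it. The line's markers VIM, CD44, EGFR, KRT8 and KRT18 summed to 3839 to 3966 CPM with Azeliragon and 3752 to 4344 CPM in DMSO, while of 4 genes known to be low in this line PGR had no reads and CDH1 had 1. ESR1 had 33 reads with Azeliragon and 5 in DMSO, and EPCAM had 8.14 ± 0.68 CPM with Azeliragon and 8.97 ± 0.71 CPM in DMSO (SD, n = 3 each). Of 6 leukocyte markers 5, among them PTPRC and CD3E, had at most 3 reads in every library. CD14, the other marker, had 0.90 ± 0.15 CPM with Azeliragon and 1.36 ± 0.18 CPM in DMSO (edgeR adjusted p = 0.247).

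With Azeliragon the beta chains ITGB4 and ITGB5, the collagen-binding alpha chains ITGA2 and ITGA10 and the laminin chain LAMA5 fell, and ITGA3, the most abundant integrin chain, rose. These were 6 of the 24 chains that passed the filter on low counts. Across all genes tested, 6.27% passed the same threshold (adjusted p under 0.05, Benjamini-Hochberg over 16081 genes), 2.75% as rises and 3.53% as falls. The falls lay between 1.25-fold and 1.65-fold, and the rise was a log2 fold change of 0.27. The other 18 chains tested did not pass, and the median log2 fold change over the 24 was -0.09, beside -0.0040 over all genes tested. The remaining 11 chains had too few reads for a test. Without DMSO a 9 of 25 chains tested passed, 3 as rises and 6 as falls, where 23.7% of all genes did (12.9% as rises and 10.8% as falls). These 9 were the same 6 chains together with LAMA3, LAMB3 and ITGAE. The median log2 fold change over the 25 chains without DMSO a was 0.025, beside -0.0037 over all genes tested. Without any one Azeliragon library 3 chains passed (ITGB4, ITGA10 and LAMA5), and 4 passed without DMSO b. Calls over all genes also dropped, from 1009 to 445, 500 and 448 without Azeliragon a, b and c, and to 473 without DMSO b. In bulk libraries such as these, fewer cells with a transcript and less of it per cell cannot be told apart.

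The promoters of LAMA5, ITGA10 and ITGA2, which fell, are shown because the title of the series names SNAIL, a repressor that binds the E2-box. Beside them stands that of LAMA3, the most abundant of the laminin alpha chains that lay higher with Azeliragon. LAMA3 did not pass the threshold with all libraries (edgeR adjusted p = 0.138). Each run is the RefSeq window of 250 bases before to 50 after the start (GRCh38.p14), 5′ to 3′ on the strand of the gene. Capitals mark matches on either strand to the E2-box (CAGGTG), the AP-1 site (TGANTCA) and the GC box (GGGCGG). The windows are chr20:62367263-62367562 (minus strand) for LAMA5, chr1:145910001-145910300 (minus) for ITGA10, chr5:52989102-52989401 (plus) for ITGA2 and chr18:23872770-23873069 (plus) for LAMA3.
LAMA5: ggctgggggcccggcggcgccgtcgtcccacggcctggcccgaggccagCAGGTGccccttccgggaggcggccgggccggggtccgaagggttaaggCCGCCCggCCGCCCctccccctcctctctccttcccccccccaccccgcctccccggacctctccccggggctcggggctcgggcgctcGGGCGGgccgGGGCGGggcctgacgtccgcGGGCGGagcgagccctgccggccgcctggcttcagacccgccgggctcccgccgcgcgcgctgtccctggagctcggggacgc
ITGA10: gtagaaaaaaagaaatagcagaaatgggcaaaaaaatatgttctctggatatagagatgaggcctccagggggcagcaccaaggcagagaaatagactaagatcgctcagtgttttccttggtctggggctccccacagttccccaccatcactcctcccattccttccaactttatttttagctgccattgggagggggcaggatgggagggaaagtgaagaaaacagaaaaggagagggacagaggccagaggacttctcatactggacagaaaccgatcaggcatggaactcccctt
ITGA2: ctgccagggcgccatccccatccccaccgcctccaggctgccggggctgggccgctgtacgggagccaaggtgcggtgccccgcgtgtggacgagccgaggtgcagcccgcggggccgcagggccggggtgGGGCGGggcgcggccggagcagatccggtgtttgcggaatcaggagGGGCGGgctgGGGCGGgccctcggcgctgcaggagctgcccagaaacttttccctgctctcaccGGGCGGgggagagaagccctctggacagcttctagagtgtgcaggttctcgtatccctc
LAMA3: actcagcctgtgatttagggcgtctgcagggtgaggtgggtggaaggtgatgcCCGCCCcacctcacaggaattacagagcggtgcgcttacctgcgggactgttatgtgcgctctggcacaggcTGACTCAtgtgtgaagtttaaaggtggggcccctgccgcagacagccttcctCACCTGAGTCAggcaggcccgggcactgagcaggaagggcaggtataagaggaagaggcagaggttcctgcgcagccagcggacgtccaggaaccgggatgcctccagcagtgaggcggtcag

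The window of LAMA5 held 1 E2-box and 5 GC boxes, that of ITGA2 held 4 GC boxes, and that of ITGA10 held none of the 3 motifs. The window of LAMA3 held 1 E2-box, 2 AP-1 sites and 1 GC box, and its E2-box overlaps an AP-1 site. That window belongs to a start within the gene, which spans 23689443 to 23956222 on chromosome 18. Whether these cells use that start was not tested. ITGB5, which also fell, has 3 windows that are not printed because the table does not tell which start these cells use, and 1 of the 3 held an E2-box. A match is a description of letters and not a binding site. Of 35116 RefSeq windows of this length, 20.6% held an E2-box, 7.71% an AP-1 site and 45% a GC box. Among the 25 members matched by symbol, some with several starts, 7 had an E2-box, 3 an AP-1 site and 14 a GC box in at least 1 window. These are counts of genes, while the shares above are of windows, so they are not directly comparable.

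Levels between chains were compared as TPM, counts divided by the exon length of each gene and scaled to a fixed sum. ITGA3, the alpha chain of the laminin receptor alpha3-beta1, stood highest at 470 ± 12 TPM with Azeliragon and 380 ± 47 TPM in DMSO (SD, n = 3 each). LAMB3, the beta chain of the hemidesmosomal laminin-332, followed at 389 ± 4.2 TPM with Azeliragon and 340 ± 19 TPM in DMSO. The shared beta chain ITGB1 had 235 ± 7.4 TPM with Azeliragon and 222 ± 41 TPM in DMSO. LAMB2 had 154 ± 4.2 TPM with Azeliragon and 152 ± 19 TPM in DMSO, and ITGB5 had 96.0 ± 4.3 TPM with Azeliragon and 116 ± 6.0 TPM in DMSO. ITGA5, at 53.9 ± 1.2 TPM with Azeliragon and 51.4 ± 4.7 TPM in DMSO, and LAMC1, at 50.5 ± 1.7 TPM with Azeliragon and 49.0 ± 9.6 TPM in DMSO, lay closer together than the spread of the DMSO libraries. Among alpha chains of laminin, LAMA5 was the most abundant in both conditions, at 27.5 ± 1.6 TPM with Azeliragon and 44.4 ± 12 TPM in DMSO, and LAMA3 and LAMA4 stood below 5 TPM in each condition. In all, 17 chains averaged at least 1 TPM.

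**Figure D1:**
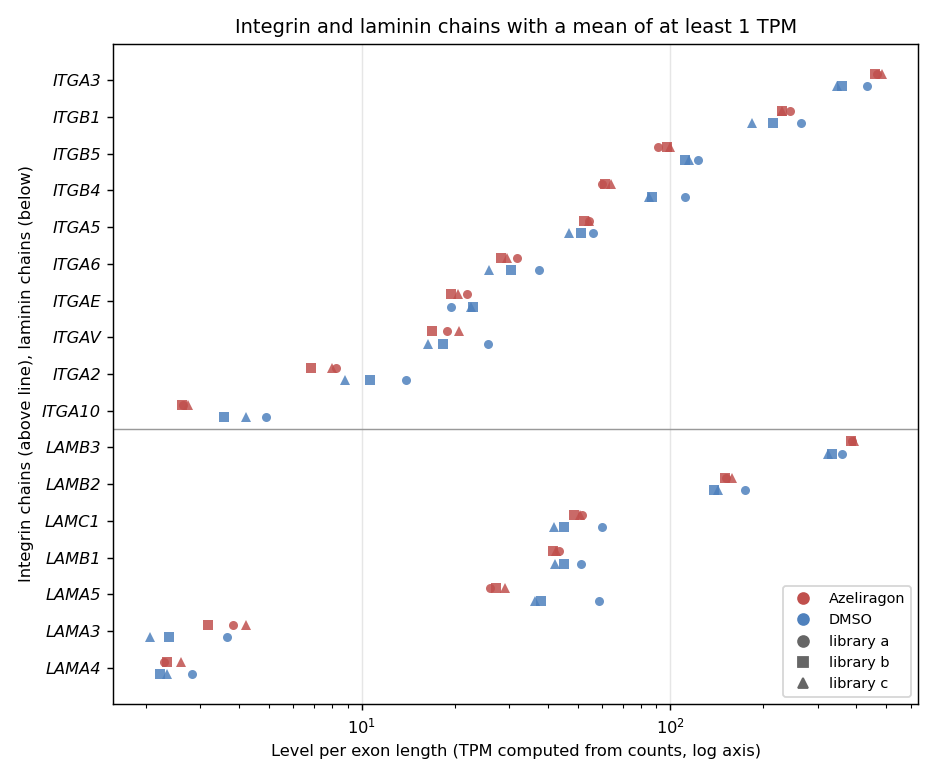
Level of each integrin and laminin chain with a mean of at least 1 TPM, on a log axis, in the 3 Azeliragon libraries (red) and the 3 DMSO libraries (blue). ITGA3 lies highest at 470 TPM with Azeliragon and 380 TPM in DMSO, and the red points of ITGB4, ITGB5, ITGA2, ITGA10 and LAMA5 lie left of the blue ones.

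ITGB4 encodes the beta4 chain, whose long cytoplasmic tail binds plectin, and occupies bases 75721328 to 75757818 of chromosome 17, plus strand, in GRCh38 (GENCODE 29). It had 126, 131 and 134 CPM (scaled by TMM factors, which align the bulk of genes between libraries) in Azeliragon a, b and c, against 227, 191 and 195 CPM in DMSO a, b and c. The groups did not overlap, and DMSO a was the highest library. ITGB4 fell 1.57-fold, with means of 130 ± 4.0 CPM with Azeliragon and 204 ± 19 CPM in DMSO (SD, n = 3 each; log2 fold change -0.65, SE 0.07; edgeR adjusted p = 0.000257). The fall passed in each of the 16 other settings, and without DMSO a its log2 fold change was -0.57. Its partner ITGA6, with 60.6 ± 3.2 CPM with Azeliragon and 65.2 ± 8.4 CPM in DMSO, did not pass (log2 fold change -0.11; edgeR adjusted p = 0.560). Per length, the ratio of ITGB4 to ITGA6 was 1.90, 2.18 and 2.17 with Azeliragon and 2.97, 2.86 and 3.31 in DMSO, so the libraries of the conditions did not overlap.

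ITGB5, the beta chain that pairs with alphaV to bind vitronectin, lies at bases 124761948 to 124901418 of chromosome 3 (minus strand). Its level was 182, 197 and 199 CPM in the Azeliragon libraries, against 238, 234 and 251 CPM in the DMSO libraries. Every Azeliragon library lay below every DMSO library. The gene fell 1.25-fold (log2 fold change -0.32, SE 0.06; edgeR adjusted p = 0.00899). This call was lost without any single Azeliragon library (edgeR adjusted p between 0.0518 and 0.0847), although the log2 fold change stayed between -0.35 and -0.28. The ratio of ITGB5 to ITGAV per length was 4.84, 5.75 and 4.81 with Azeliragon and 4.81, 6.11 and 6.99 in DMSO, and here the conditions overlapped. ITGAV, its alpha chain, had 48.1 ± 4.5 CPM with Azeliragon and 52.5 ± 9.3 CPM in DMSO and did not pass (log2 fold change -0.13; edgeR adjusted p = 0.580). ITGB8, ITGB3 and ITGB6, beta chains that also pair with alphaV, were far lower. ITGB8 had 2.39 ± 0.23 CPM with Azeliragon and 3.22 ± 0.41 CPM in DMSO (log2 fold change -0.43; edgeR adjusted p = 0.192), ITGB3 had 0.808 ± 0.26 CPM with Azeliragon and 0.573 ± 0.20 CPM in DMSO and shares 2266 exon bases with another gene on its strand, and ITGB6 had no reads with Azeliragon and 5 in all in DMSO.

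The collagen receptors alpha2-beta1 and alpha10-beta1 are formed by ITGA2 and ITGA10 with ITGB1. ITGA2, at bases 52989326 to 53094779 of chromosome 5 (plus strand), had 20.3, 17.1 and 19.6 CPM with Azeliragon and 33.1, 27.3 and 23.8 CPM in DMSO. The groups did not overlap, and the DMSO libraries spread widely with DMSO a on top. ITGA2 fell 1.48-fold (log2 fold change -0.56, SE 0.12; edgeR adjusted p = 0.0148), and the call was lost without any single Azeliragon library or without DMSO b (edgeR adjusted p between 0.0532 and 0.0944), with log2 fold changes between -0.61 and -0.49. ITGA10, at bases 145891208 to 145910189 of chromosome 1 (minus strand), had 5.14, 5.18 and 5.35 CPM with Azeliragon and 9.28, 7.37 and 9.02 CPM in DMSO. It fell 1.64-fold (log2 fold change -0.71, SE 0.13; edgeR adjusted p = 0.00507) and passed in each of the 16 other settings. An opposite-strand gene covers 122 of its 6320 exon bases, and the strand setting of the counting is not given, so its count is uncertain to that extent. Of the other collagen-binding chains, ITGA1 had 4.33 ± 0.89 CPM with Azeliragon and 4.78 ± 0.93 CPM in DMSO and did not pass (log2 fold change -0.14; edgeR adjusted p = 0.724), with 1046 exon bases shared with PELO and another gene on its strand, and ITGA11 had at most 7 reads in any library. ITGB1 itself had 439 ± 12 CPM with Azeliragon and 425 ± 53 CPM in DMSO (log2 fold change 0.04, 95% confidence interval from -0.13 to 0.22; edgeR adjusted p = 0.814).

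**Figure D2:**
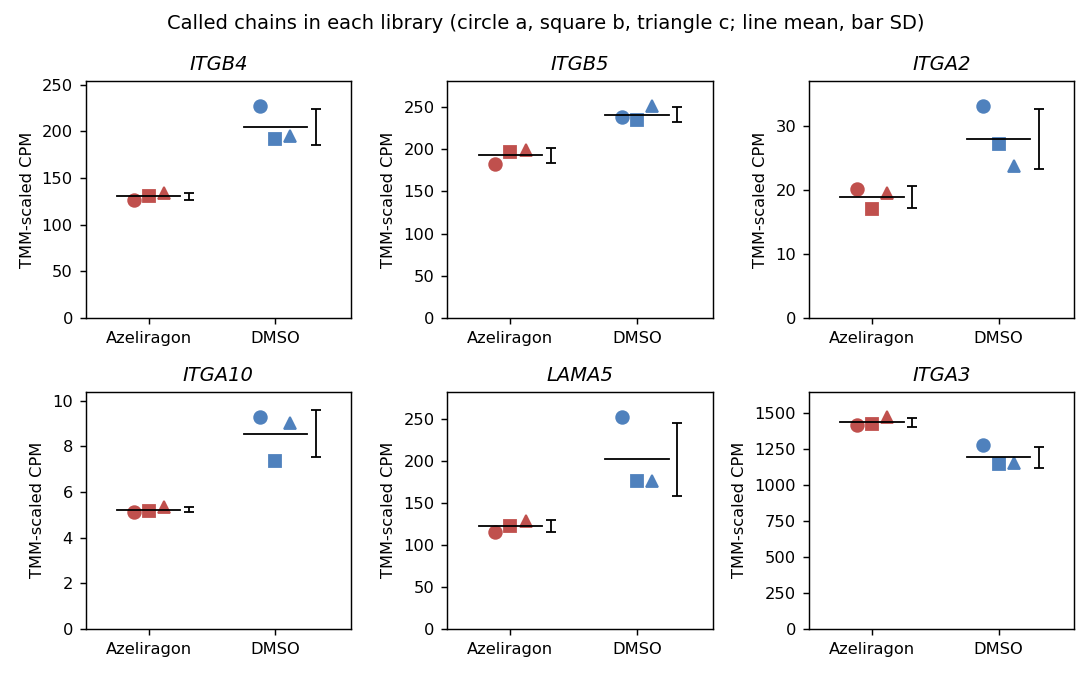
TMM-scaled CPM of the 6 chains that passed the threshold in each library, Azeliragon left and DMSO right, with the mean (line) and SD (bar) of 3 libraries. The conditions do not overlap for any of the 6, and LAMA5 is highest in DMSO a at 252 CPM.

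ITGA3, at bases 50055968 to 50090481 of chromosome 17 (plus strand), was the 1 chain that rose. It had 1413, 1420 and 1470 CPM with Azeliragon, against 1277, 1143 and 1152 CPM in DMSO. All Azeliragon libraries lay above all DMSO libraries, of which DMSO a was the highest. ITGA3 rose by a small amount (log2 fold change 0.27, SE 0.06; edgeR adjusted p = 0.0246). Leaving out any single library other than DMSO a ended the call (edgeR adjusted p between 0.0502 and 0.173) while the log2 fold change stayed between 0.24 and 0.28, and without DMSO a the log2 fold change was 0.32 (edgeR adjusted p = 4.84e-06). Of the summed TPM of the 17 integrin alpha chains, ITGA3 made up 77.7 ± 0.70% with Azeliragon and 72.8 ± 0.66% in DMSO (SD, n = 3 each).

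No other integrin alpha chain passed in the edgeR fit to all libraries. ITGA5, the fibronectin receptor chain, had 127 ± 1.8 CPM with Azeliragon and 125 ± 3.8 CPM in DMSO (log2 fold change 0.02, 95% confidence interval from -0.11 to 0.15; edgeR adjusted p = 0.870). ITGAE, known as the alpha chain of the E-cadherin receptor of intraepithelial lymphocytes, had 42.7 ± 2.4 CPM with Azeliragon and 46.4 ± 6.6 CPM in DMSO and did not pass (log2 fold change -0.12; edgeR adjusted p = 0.555). Its DMSO libraries stood at 38.9, 49.5 and 50.9 CPM, and without DMSO a, the lowest, it passed as a fall (log2 fold change -0.23; edgeR adjusted p = 0.0181). HASPIN and another gene on the opposite strand cover 505 of the 6657 exon bases of ITGAE. ITGA7, a laminin receptor chain of muscle, had 1.39 ± 0.18 CPM with Azeliragon and 1.23 ± 0.34 CPM in DMSO and did not pass (edgeR adjusted p = 0.773). The platelet chain ITGA2B rested on 3, 9 and 10 reads with Azeliragon and 21, 27 and 17 reads in DMSO, and did not pass (log2 fold change -1.51, 95% confidence interval from -2.63 to -0.39; edgeR adjusted p = 0.117).

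The chains of leukocyte integrins and a few others had almost no reads. ITGAX and ITGA8, a chain of mesenchyme and smooth muscle, had no reads in any library, where 3 reads would be at most 0.0724 CPM. ITGAL had no reads with Azeliragon and 3 in DMSO, ITGAM had 1 with Azeliragon and none in DMSO, and ITGA4 had 2 with Azeliragon and none in DMSO. ITGB7 had 2 reads with Azeliragon and 3 in DMSO. ITGB2, the shared beta chain of leukocyte integrins, had 4, 12 and 5 reads with Azeliragon and 9, 0 and 3 in DMSO. ITGA9, which binds tenascin and osteopontin, had 13, 13 and 2 reads with Azeliragon and 3, 8 and 7 in DMSO. None of these chains had enough reads for a test.

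**Figure D3:**
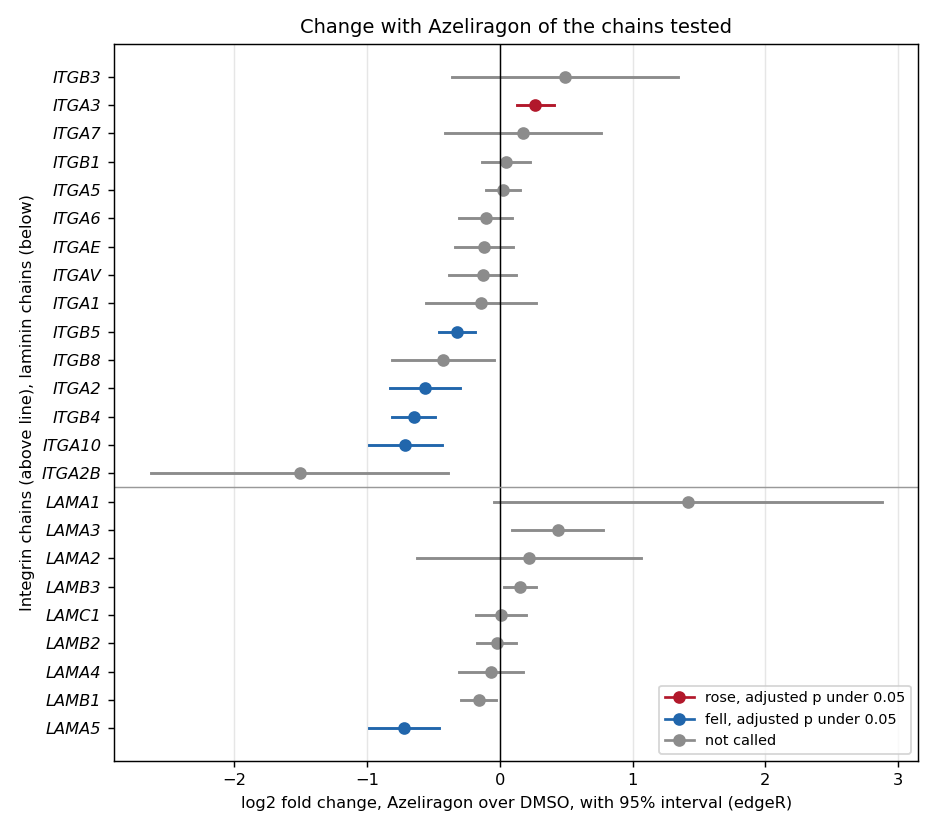
Log2 fold change of Azeliragon over DMSO with its 95% interval for the 24 chains tested, integrins above the line and laminins below. ITGB5, ITGA2, ITGB4, ITGA10 and LAMA5 fell (blue), ITGA3 rose (red), and the widest intervals belong to the sparse ITGA2B and LAMA1.

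LAMA5 encodes the alpha5 chain of laminin-511 and laminin-521, widespread laminins of epithelial basement membranes, and lies at bases 62307955 to 62367312 of chromosome 20 (minus strand). It had 115, 123 and 129 CPM with Azeliragon, against 252, 177 and 177 CPM in DMSO. The groups did not overlap, and DMSO a stood well above the other DMSO libraries. LAMA5 fell 1.65-fold, with means of 122 ± 7.0 CPM with Azeliragon and 202 ± 44 CPM in DMSO (SD, n = 3 each; log2 fold change -0.72, SE 0.12; edgeR adjusted p = 0.00364). Without DMSO a the log2 fold change was -0.53 (edgeR adjusted p = 9.05e-08), and the fall passed in each of the 16 other settings. Genes on the opposite strand, ADRM1 and LAMA5-AS1, cover 362 of its 14291 exon bases.

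LAMA3, the alpha chain of laminin-332, did not pass in the edgeR fit to all libraries. It had 17.4, 14.6 and 19.1 CPM with Azeliragon and 16.1, 11.3 and 10.3 CPM in DMSO, so Azeliragon b lay below DMSO a (log2 fold change 0.44, 95% confidence interval from 0.09 to 0.78; edgeR adjusted p = 0.138). Without DMSO a it passed as a rise (log2 fold change 0.66; edgeR adjusted p = 0.000114), and it also passed with no filter on low counts and with the GC and length trend removed. It did not pass with the library letter as a further term in the trend-removed fit. Per length, LAMA5 made up 80.3, 82.4 and 80.3% of the summed laminin alpha TPM with Azeliragon and 89.7, 88.7 and 89.0% in DMSO, while LAMA3 made up 11.0 ± 1.2% with Azeliragon and 5.38 ± 0.31% in DMSO (SD, n = 3 each). The ratio of LAMA3 to LAMA5 was 0.147, 0.116 and 0.144 with Azeliragon, against 0.0623, 0.0624 and 0.0565 in DMSO. In this ratio DMSO a stood with the other DMSO libraries, and the conditions did not overlap. The ratio of LAMA3 to LAMB3, its partner in laminin-332, was 0.00986, 0.00822 and 0.0107 with Azeliragon and 0.0102, 0.00709 and 0.00636 in DMSO, and the conditions overlapped. The exon length used for LAMA3 covers the exons of all its transcripts. Which of them these cells make was not tested, so the size of its shares and ratios per length is uncertain.

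LAMA4, a chain of vessel and mesenchymal laminins, had 8.69 ± 0.58 CPM with Azeliragon and 9.10 ± 0.72 CPM in DMSO (log2 fold change -0.07; edgeR adjusted p = 0.789). LAMA1, an embryonic chain, and LAMA2, the chain of muscle laminin, stayed under 1 CPM in every library. LAMA1 rested on 11, 32 and 23 reads with Azeliragon and 2, 18 and 5 in DMSO, with overlapping groups and no call (log2 fold change 1.42, 95% confidence interval from -0.05 to 2.88; edgeR adjusted p = 0.261).

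Among the laminin beta and gamma chains none passed in the edgeR fit to all libraries, although LAMB3 (edgeR adjusted p = 0.0293) and LAMB1 (edgeR adjusted p = 0.0271) passed once the GC and length trend was removed. With the library letter as a further term in the trend-removed fit, LAMB3 still passed and LAMB1 did not. LAMB3 had 563, 569 and 572 CPM with Azeliragon and 508, 509 and 516 CPM in DMSO. The libraries of each condition lay close together and did not overlap, with a log2 fold change of 0.15 (95% confidence interval from 0.03 to 0.27; edgeR adjusted p = 0.136), and without DMSO a the gene passed as a rise (log2 fold change 0.15; edgeR adjusted p = 0.0173). LAMB1, of laminin-111 and laminin-411, had 108 ± 1.6 CPM with Azeliragon and 120 ± 4.2 CPM in DMSO, with no overlap and no call (log2 fold change -0.16; edgeR adjusted p = 0.157). LAMB2, of laminin-521, had 328 ± 7.4 CPM with Azeliragon and 334 ± 25 CPM in DMSO (log2 fold change -0.02; edgeR adjusted p = 0.887). LAMC1, the gamma chain of most laminins, had 132 ± 3.3 CPM with Azeliragon and 131 ± 17 CPM in DMSO (log2 fold change 0.01, 95% confidence interval from -0.18 to 0.19; edgeR adjusted p = 0.977). LAMC3 had 1 read in each Azeliragon library and none in DMSO.

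Over the 24 chains tested, the conditions did not overlap for 10, with Azeliragon higher for 2 and lower for 8. Over all genes tested the conditions did not overlap for 25.3%, with Azeliragon higher for 12.1% and lower for 13.2%. The 10 were the 6 called chains with ITGA2B, ITGB8, LAMB1 and LAMB3. Across the 24 chains the log2 fold change had a correlation of -0.15 with the GC content of the longest transcript and 0.23 with log2 exon length, given as a description over genes measured in the same libraries. The falls included GC-rich transcripts, as for LAMA5 (66.4%) and ITGB4 (63.7%), and the GC-poor ITGA2 (40.2%), and ITGA3 at 61.3% rose.

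**Figure D4:**
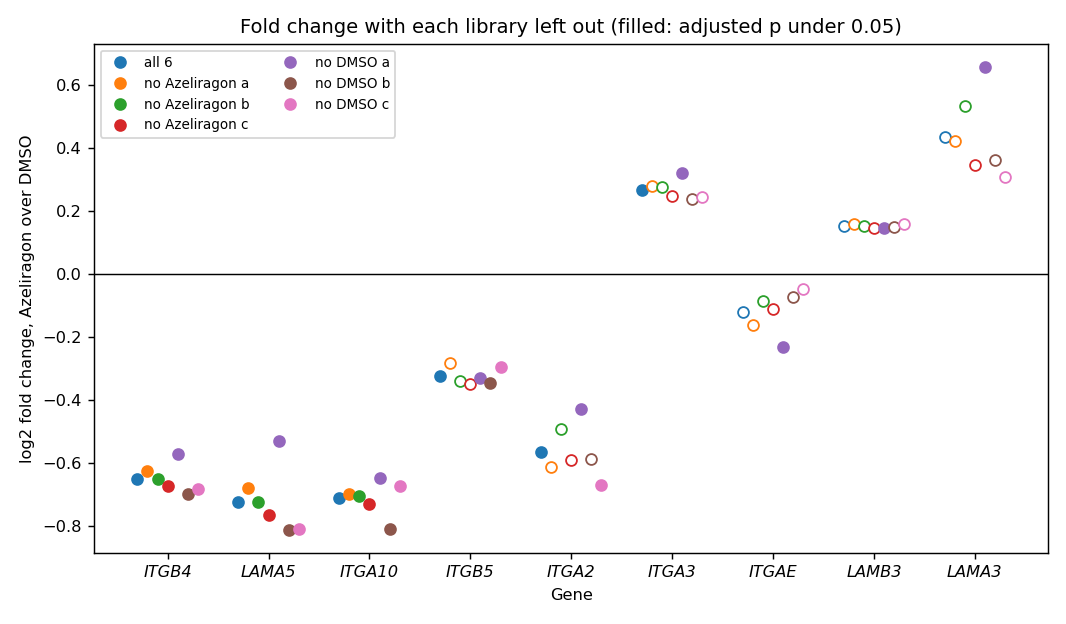
Log2 fold change of the 6 called chains and of ITGAE, LAMB3 and LAMA3 with all 6 libraries and with each library left out, filled where the edgeR adjusted p was under 0.05. ITGB4, LAMA5 and ITGA10 are filled throughout, and ITGAE, LAMB3 and LAMA3 are filled only without DMSO a.

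Of 29 adhesion adaptors tested, 1 rose and 1 fell, with a median log2 fold change of 0.06. These 2 are 6.90% of the adaptors tested, close to the 6.27% of all genes tested. ACTN1, the actin cross-linker alpha-actinin 1, had 1191 ± 11 CPM with Azeliragon and 962 ± 21 CPM in DMSO (SD, n = 3 each) and rose 1.24-fold (edgeR adjusted p = 0.00577). TNS2, a tensin that binds beta chain tails, fell 1.40-fold (edgeR adjusted p = 0.00418). Of the adaptors that missed the threshold, the most abundant were FLNA, ACTN4 and TLN1: the log2 fold change was 0.27 for FLNA, 0.18 for ACTN4 and 0.26 for TLN1, which encodes talin. Leaving out DMSO a gave 13 called adaptors, 11 of them rises, where 23.7% of all genes tested were called and 12.9% rose. Leaving out Azeliragon c or DMSO b gave 1 called adaptor, with 448 and 473 genes called in all. Of 10 hemidesmosome and tetraspanin partners, CD9 rose 1.29-fold (edgeR adjusted p = 0.00410) and CD82 fell 1.42-fold (edgeR adjusted p = 0.00127). Both are tetraspanins that associate with integrins. PLEC (log2 fold change 0.09), CD151 (-0.14) and SLC3A2 (0.03) missed the threshold. The 2 called partners are 20% of the list, beside 6.27% of all genes tested. Without DMSO a 6 of these partners passed, where 23.7% of all genes tested did.

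Of 11 basement membrane and laminin partners tested, 2 fell and none rose, with a median log2 fold change of -0.11. These 2 are 18.2% of the partners tested, beside 6.27% of all genes tested (3.53% as falls). COL18A1, whose product releases endostatin, fell 1.75-fold to 78.2 ± 1.4 CPM with Azeliragon, against 137 ± 8.5 CPM in DMSO (SD, n = 3 each; edgeR adjusted p = 3.46e-05), and shares 1401 exon bases with a gene on the opposite strand. BCAM, a laminin alpha5 receptor, fell 1.38-fold to 27.3 ± 1.7 CPM with Azeliragon, against 37.6 ± 4.6 CPM in DMSO (edgeR adjusted p = 0.0141). AGRN (log2 fold change 0.05), DAG1 (-0.02) and COL4A2 (-0.16) missed the threshold. Leaving out DMSO a gave 4 called members of this list, where 23.7% of all genes tested were called. Leaving out Azeliragon a or c gave 1, with 445 and 448 genes called in all. Of 13 other integrin ligands tested, TGFBI and EDIL3 fell (log2 fold change -1.08 and -0.85), and CCN1 (listed as CYR61) and MFGE8 rose (0.30 and 0.27; edgeR adjusted p between 4.22e-06 and 0.0264). EDIL3 and MFGE8 encode related proteins that bind alphaV integrins, and EDIL3 had 16.8 ± 0.42 CPM with Azeliragon and 30.4 ± 2.1 CPM in DMSO. THBS1 (log2 fold change -0.20), CCN2 (listed as CTGF, 0.19) and FN1 (-0.06) missed the threshold. The 4 called ligands are 30.8% of those tested, beside 6.27% of all genes tested. Leaving out DMSO b, Azeliragon b or Azeliragon c gave 2 called ligands, with 473, 500 and 448 genes called in all. Without DMSO a 6 ligands passed, where 23.7% of all genes tested did. TNS2, CD82 and EDIL3 share exon bases with genes on the opposite strand.

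Markers of other cell types were checked beside these values. The 7 fibroblast markers summed to 11.3 to 13.3 CPM with Azeliragon and 19.6 to 22.3 CPM in DMSO. PDGFRB, COL1A1 and COL1A2 fell, while DCN, PDGFRA and COL3A1 had at most 3 reads in every library. LUM had 98 reads with Azeliragon and 84 in DMSO and did not pass (log2 fold change 0.25). The 5 endothelial markers summed to 5.96 to 6.29 CPM with Azeliragon and 3.15 to 4.50 CPM in DMSO, most of it from KDR, which rose (edgeR adjusted p = 0.0324), and TEK had at most 3 reads in every library. PECAM1 lay lower (log2 fold change -0.86) and VWF higher (1.96), and neither passed. CDH5 had 19 reads with Azeliragon and 9 in DMSO. Platelet markers summed to 0.711 to 2.09 CPM with Azeliragon and 0.765 to 1.48 CPM in DMSO, and myoepithelial markers to 2.36 to 3.49 CPM with Azeliragon and 3.31 to 3.37 CPM in DMSO. The part of these markers in the results was not tested.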

How the data were processed

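Polyadenylated RNA of 6 libraries, 3 per condition, was sequenced, and the authors deposited raw counts per gene name. The submitters' processing notes name build GRCh38 and, without roles, featureCounts 1.5.0-p3, STAR 2.6.1d and limma. How strand and multi-mapping reads were treated, and with which annotation, is not given in the sources used here. GENCODE 29 held 58722 of the names and gave coordinates, exon lengths and GC content. Of 58735 entries, 2 with date-like names (0% of counts) were left out.

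Genes were filtered with filterByExpr, scaled by TMM and compared with glmQLFit and glmQLFTest (edgeR 4.0.16, R 4.3.3; treatment as the only term), with Benjamini-Hochberg adjustment over 16081 genes and a threshold of 0.05. Intervals are at 95%. TPM was computed from counts and the union of exons. limma 3.58.1, DESeq2 1.42.0, Python 3.11.15 and matplotlib 3.10.9 were also used. The edgeR step was tested on simulated data. Within a condition, library pairs differed by more than sampling noise (chi-square per degree of freedom at least 4.60). Each SE was derived as the size of the log2 fold change over the square root of the edgeR F statistic. Intervals of fold changes were built on these SEs and include the spread between libraries. The floors of 3 reads cover counting error only.

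The members, lists and tests were chosen with earlier results of these data known. Called chains are given in full, other chains with a mean of at least 10 CPM by level and test, and of the partner lists the called members and the 3 most abundant others; further chains were named after their values were seen.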

Additional observations from a re-analysis of the deposited data

How the results depend on the processing

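ITGB4, LAMA5 and ITGA10 passed in all 16 other settings (RLE factors, library totals, filters, DESeq2, limma-voom, replicate block, trend removal, single libraries left out). The number of chains called was 6 with the replicate block, 9 with the GC and length trend removed, 3 to 9 with a library left out, and 12 with the GC and length trend removed without DMSO a. Over all genes 1009 passed, against 1685 with no filter, 1690 with the GC and length trend removed, 1533 with that and the replicate block, 3735 with that and without DMSO a, and 445 to 3916 with a library left out. The partner lists together had 10 members called, against 21 with no filter or with the trend removed, 21 with that and the replicate block, 34 with that and without DMSO a, and 6 to 29 with a library left out. Adaptors, 2 with all libraries, went to 9 with no filter, 6 with DESeq2, 8 with the trend removed, 9 with that and the replicate block, 16 with that and without DMSO a, and 1 to 13 with a library left out. Basement membrane partners went to 4 with the trend removed and without DMSO a, and 1 to 4 with a library left out; hemidesmosome and tetraspanin partners to 4 with the trend removed, 7 with that and without DMSO a, and 2 to 6 with a library left out; other ligands to 7 under each of the trend settings and 2 to 6 with a library left out. Some of the values that did not pass changed sign in these settings. LAMC1 went to -0.0674 with the trend removed, -0.0671 with that and the replicate block, and -0.0456 with that and without DMSO a, and ITGA5 to -0.0026 in the last of these. With a library left out the log2 fold changes ranged from -0.0573 to 0.121 for LAMC1, -4.62e-05 to 0.0426 for ITGA5, -0.288 to 0.0159 for ITGA1, -0.220 to 0.0251 for ITGAV, -0.0390 to 0.140 for ITGB1, -0.0245 to 0.533 for LAMA2 and -0.0764 to 0.0328 for LAMB2. Same-letter libraries did not deviate together (correlations 0.03, 0.02 and -0.04). The labels do not say whether same-letter libraries were handled together, and these correlations cannot settle it. The causes were not tested.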
